A study of Mus musculus with 24 samples.

Results

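The genes described here are 8 regulators of muscle identity, read in the quadriceps of mice on a low fat or a high fat diet. They are the myogenic factors Myod1, Myog and Myf6, the MEF2 family members Mef2a, Mef2c and Mef2d, the SOX factor Sox6 and the T-box factor Tbx15. They were found by their gene symbols in the platform annotation of the array, 8 of 14754 genes with a probe set of their own, and each had 1 probe set. A further gene of the list, Mstn, which encodes the secreted growth inhibitor myostatin, had no probe set under its symbol in the tables used and was not analysed here. Tbx15 was lower on high fat than on low fat after 3 days and again after 28 days, and Mef2d was lower on high fat after 3 days. The other tested regulators, Myod1, Myf6, Mef2c and Sox6, passed the test in no comparison.

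The myogenic factors are basic helix-loop-helix proteins that bind the sequence CANNTG, the E-box, as partners of E proteins, and they set up the muscle programme in the embryo and in regenerating fibres. MEF2 proteins bind an A and T rich site, work together with the myogenic factors, and are held back by class II histone deacetylases until calcium signals release them. In the adult fibre these pathways meet the choice between slow, oxidative and fast, glycolytic contractile genes: Sox6 represses slow fibre genes in fast fibres, and Tbx15 is known from glycolytic fibres, while calcineurin and its NFAT targets favour the slow programme.

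All 4 groups were male mice of 1 strain, which the sample labels spell C56BL/6J and the series text C57BL/6J, with no allele or agent named. At 9 weeks of age they were moved to the low fat diet for a run-in of 3 weeks, and were then kept on that palm oil diet (10% of energy) or given the high fat palm oil diet (45% of energy). Quadriceps was taken after 3 days, at 12 weeks of age, or after 28 days, at 16 weeks, so that age and time on the diet cannot be told apart. Each group held 6 mice with 1 Affymetrix array each, 24 arrays in all, and every group shared the run-in on low fat. The whole muscle was used, so a lower level can come from fewer cells of a type or from less RNA per cell, and these cannot be told apart.

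Values are log2 of the deposited intensity of the probe set, on which a difference of 1 is a doubling. The level of one probe set cannot be set against that of another, so each gene is compared only with itself across groups. A gene was tested when its log2 intensity exceeded 4 on at least 6 of the 24 arrays, and 5793 genes were, among them 6 of the 8 regulators. Myog and Mef2a lay near the floor of the array and are given as values. A gene was called when its adjusted p by limma was under 0.05 over all tested genes. Array medians of the linear intensity ran from 6.56 to 6.90, and any pair of arrays correlated at 0.978 to 0.995. The labelled tissue was borne out by its markers, since all 8 skeletal muscle fibre genes were tested and none had a group mean log2 intensity under 10.86. Of 10 satellite cell markers 3 were tested, and Pax7, Pax3, Myf5, Vcam1, Calcr, Fgfr4 and Chrdl2 lay near the floor.

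**Figure D1:**
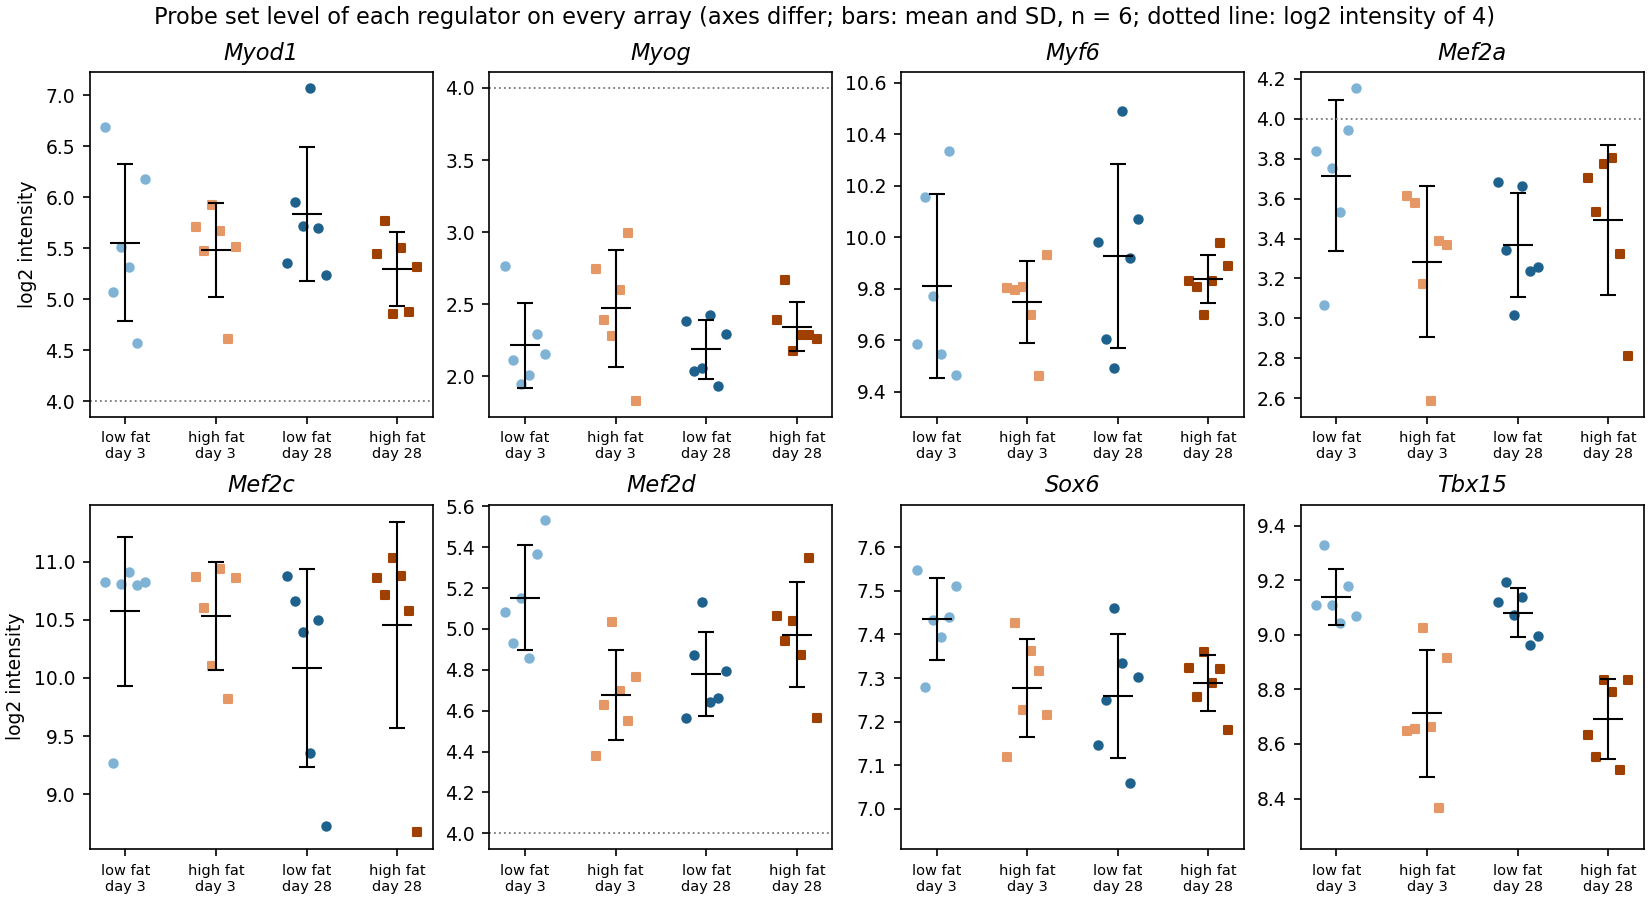
Log2 intensity of the probe set of each of the 8 regulators on every array, in the 4 groups of 6 mice, with a bar at the mean and whiskers of 1 SD. The dotted line, drawn where values come near it, marks a log2 intensity of 4. Tbx15 parts the diets at both days without overlap, Mef2d is lower on high fat at day 3 with overlapping ranges, and Myog and Mef2a stay under the line on all arrays but 1 (Mef2a, low fat day 3).

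At day 3, 2 of the 6 tested regulators were called, both lower on high fat, against 14.9% of all tested genes called in either direction, 7.99% higher and 6.87% lower. The median log2 difference of the 6 was -0.12, against -0.0051 over all tested genes. At day 28, 1 of 6 was called, again lower, against 12.5% of all tested genes in either direction, 5.35% higher and 7.18% lower. Higher genes made up 42.7% of the calls at day 28, and 52.8% after quantile normalization, under which Tbx15 was still the 1 regulator called. The median of the 6 was -0.03 against 0.0097 over all tested genes. With so few genes, these counts describe the 6 and are not read as a shift of the family.

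**Figure D2:**
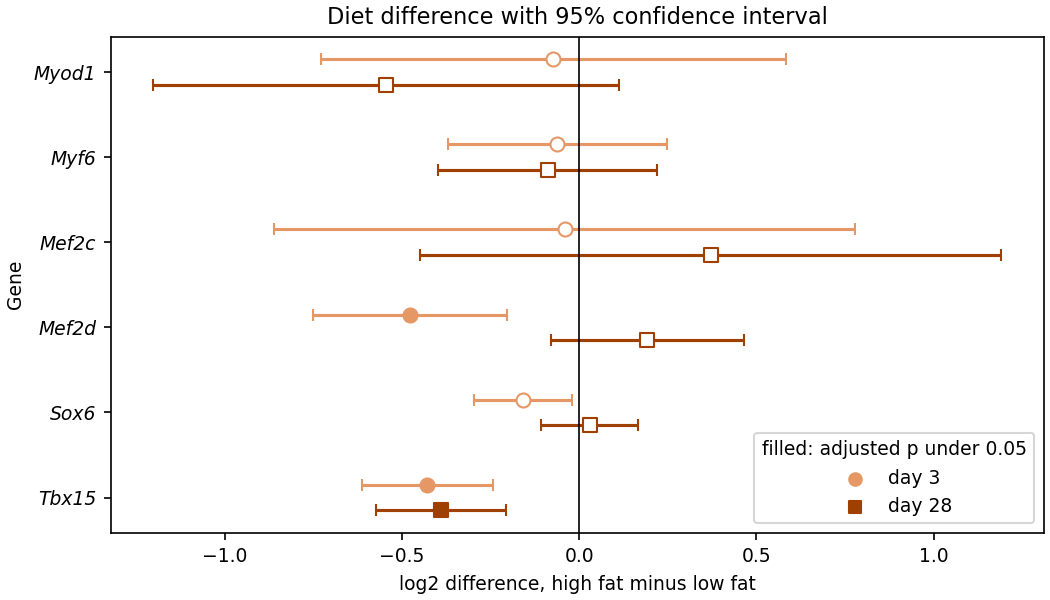
Log2 difference between high fat and low fat for the 6 tested regulators at day 3 (circles) and day 28 (squares), with the 95% confidence interval of the fit. Filled points have an adjusted p under 0.05. Tbx15 lies at -0.43 and -0.39, and Mef2d at -0.48 at day 3 and 0.19 at day 28.

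Tbx15 (Entrez gene 21384), a T-box repressor expressed in glycolytic fibres and also known from adipose tissue, was the regulator whose level parted the diets at both days. At day 3 its log2 intensity on low fat was 9.04 at the lowest, 9.11 at the median and 9.33 at the highest. On high fat it was 8.37, 8.66 and 9.02. Every high fat mouse was thus below every low fat mouse, by a narrow margin, since high fat replicate 3 at 9.02 came close to the lowest low fat value. The group means were 9.14 ± 0.10 (SD, n = 6) and 8.71 ± 0.23 (SD, n = 6). The difference was -0.43 ± 0.09 (log2, SE), with a 95% confidence interval of -0.61 to -0.24 and an adjusted p of 0.00241 by limma, so that the level fell by 25.7% on the linear scale.

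At day 28 Tbx15 on low fat was 8.96 at the lowest, 9.10 at the median and 9.19 at the highest, and on high fat 8.51, 8.71 and 8.84. The groups again did not overlap. Their means were 9.08 ± 0.09 (SD, n = 6) and 8.69 ± 0.15 (SD, n = 6), a difference of -0.39 ± 0.09 (log2, SE; interval -0.57 to -0.21, adjusted p by limma 0.00476), so that the level fell by 23.7%. Among all tested genes 6.09% had groups without overlap at day 3 (2.59% with high fat below) and 8.04% at day 28 (4.56% with high fat below). High fat lay wholly below low fat at both days for 24 genes, or 0.414%, while 103 genes, or 1.78%, were called lower at both. The diet effects of Tbx15 at the 2 days differed by 0.04 ± 0.13 (log2, SE; interval -0.22 to 0.30, adjusted p by limma 0.903). The level did not pass the test for a change with time on either diet, with a log2 difference of day 28 minus day 3 of -0.06 ± 0.09 on low fat and -0.02 ± 0.09 on high fat. Leaving out each array in turn kept the call at both days, with differences of -0.49 to -0.36 at day 3 and -0.42 to -0.35 at day 28.

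The fall of Tbx15 went with a change of fibre type genes. The mean log2 intensity of the 10 slow fibre genes was 5.70 ± 1.36 (SD, n = 6) on low fat and 9.40 ± 0.85 on high fat at day 3, and 5.93 ± 1.08 and 9.20 ± 0.39 at day 28. The slow myosin gene Myh7 had group means of 3.99 ± 2.33 (SD, n = 6) on low fat and 9.59 ± 1.23 on high fat at day 3. At day 28 they were 4.32 ± 2.09 and 9.34 ± 0.52. Its low fat means lay near the threshold of 4, so no size is read from its rise. Myh2, the myosin of fast oxidative fibres, had means of 11.88 and 13.07 at day 3 and 12.05 and 13.04 at day 28, and both were called. Myh4, the myosin of the most glycolytic fibres, had means of 13.34 and 13.26 at day 3 and 13.24 and 13.26 at day 28, and Myh1, that of the intermediate fast fibres, 12.22 and 12.33, then 12.24 and 12.26. Neither Myh4 nor Myh1 was called. Of the slow fibre genes 10 of 10 were called higher at day 3 and 8 of 10 at day 28, against 7.99% and 5.35% of all tested genes. Genes near the floor on low fat, such as Myh7, can pass the filter through the high fat groups alone. These counts are therefore only a description of the list. The fall of Tbx15 thus stood beside called rises of slow fibre genes and of Myh2, and not beside a called fall of glycolytic myosin.

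Within groups, Tbx15 and the slow fibre mean did not go together. After the group means were subtracted, Pearson's r over the 24 arrays was 0.02 (p = 0.907 by 1e+05 permutations within groups, adjusted p = 0.956 over a family of 18 relations; Spearman's rho -0.06, p = 0.830), and -0.04 without the 2 arrays farthest from the median slow fibre mean. With the slow fibre mean in the fit, the difference was -0.44 ± 0.16 (SE) at day 3 and -0.40 ± 0.15 at day 28. The errors were wider, with adjusted p by limma of 0.274 and 0.312. This covariate parts the diets by itself, so the fit cannot tell diet from the slow fibre level. Under it 17 of the 861 genes called at day 3 remained called.

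Fat tissue markers also moved with diet. Of 11 adipocyte markers 8 were in the table and 7 were tested. At day 3, 3 were called lower and 1 higher on high fat (Car3, which muscle fibres also express). At day 28, 6 of the 7 were called lower. Over all tested genes 7.99% were called higher and 6.87% lower at day 3, and 7.18% lower at day 28. The summed linear intensity of the 8 was 7613 to 15635 on low fat and 8907 to 16063 on high fat at day 3, and 11197 to 19913 against 8452 to 10093 at day 28, so it overlapped at day 3 and not at day 28. That sum includes Car3. Without it the sum of the other 7 was 3790 to 10987 on low fat and 3212 to 9755 on high fat at day 3, and 7220 to 13724 against 2768 to 4224 at day 28. The median log2 difference of the 7 tested markers was -1.18 at day 3 and -2.88 at day 28, and the adipocyte mean, over the same 7, was 9.21 ± 0.91 (SD, n = 6) against 7.87 ± 1.11 and 10.01 ± 0.49 against 7.15 ± 0.50. Lep lay near the floor in all groups. Within groups the r of Tbx15 with the adipocyte mean was -0.36 (p = 0.179, adjusted p = 0.430, permutations as above; Spearman's rho -0.20, p = 0.398), and -0.09 without the 2 arrays farthest from the median. With the adipocyte mean as a covariate the difference was -0.52 ± 0.10 (SE; adjusted p by limma 0.00202) at day 3 and -0.59 ± 0.15 (adjusted p 0.0733) at day 28. The call was lost at day 28, where 35 genes of all tested were called under this covariate. At day 28 the adipocyte mean was 9.17 or more on low fat and 8.03 or less on high fat. That fit therefore cannot tell diet from the adipocyte level. Within single groups the r of Tbx15 with the adipocyte mean was 0.43 on low fat and -0.66 on high fat at day 3, and -0.56 and -0.33 at day 28. The high fat mouse of lowest Tbx15 at day 3, replicate 5 at 8.37, had the highest adipocyte mean of its group, 9.89. This mouse is 1 of the 2 arrays left out above and was named after its values were seen. The part of fat tissue in the diet difference was not tested beyond these fits.

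**Figure D3:**
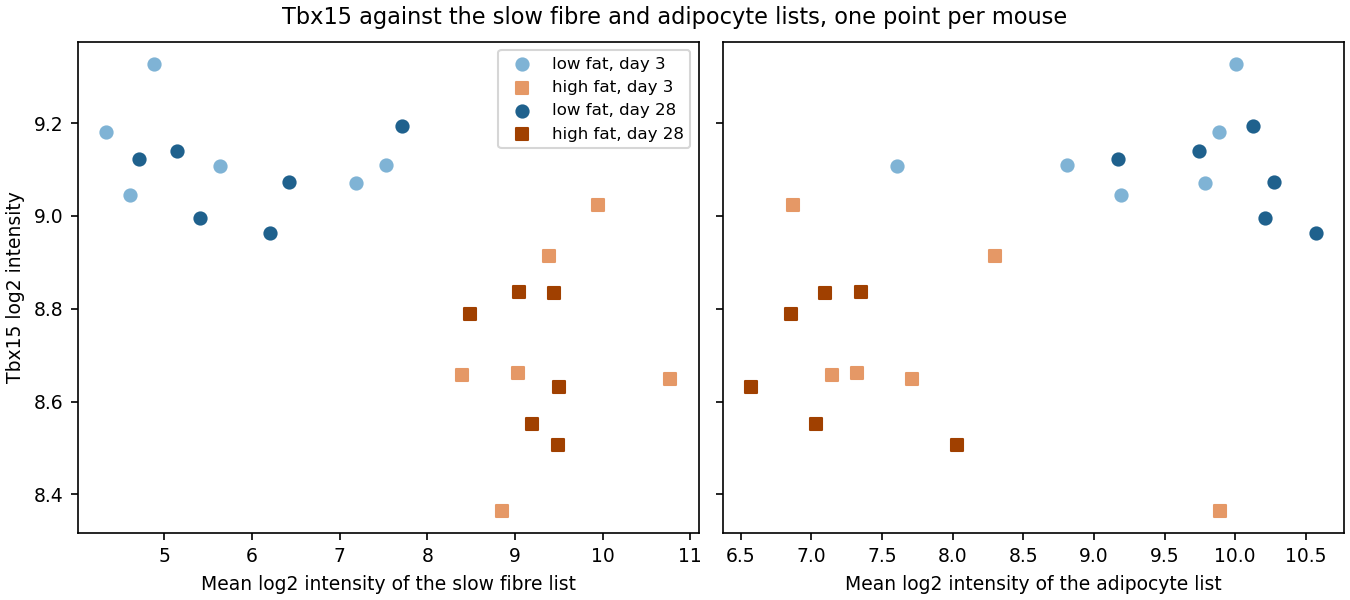
Log2 intensity of Tbx15 against the mean log2 intensity of the slow fibre list (left) and of the adipocyte list (right), 1 point per mouse, 6 mice in each of the 4 groups. Within each day, high fat mice lie lower in Tbx15 and higher in the slow fibre list than low fat mice. The within-group r of Tbx15 is 0.02 for the slow fibre list and -0.36 for the adipocyte list.

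Markers of other cells in whole muscle were counted too. Over all tested genes 7.99% were called higher and 6.87% lower at day 3, and 5.35% and 7.18% at day 28. In lists this short a count of 1 cannot be set apart from that background. Of 8 tested macrophage markers 1 was called lower at day 3 and 8 at day 28, and the summed intensity of the list was 957 to 2284 on low fat and 762 to 1546 on high fat at day 3, and 1137 to 2462 and 686 to 1182 at day 28. Cd68 and Itgam lay near the floor. Of 10 tested endothelial markers 6 were called higher at day 3 and 1 at day 28, with sums of 721 to 897 and 1026 to 1156 at day 3, and 834 to 1020 and 959 to 1278 at day 28, so that the diets did not overlap at day 3. Of 9 tested fibroblast and tendon markers 5 were called higher at day 3, while 2 were called higher and 1 lower at day 28. Of 5 tested smooth muscle and pericyte markers 3 were called higher at day 3 (median log2 difference 0.39) and 1 at day 28 (0.33), with sums of 3078 to 3428 and 3125 to 3875 at day 3, and 3149 to 3635 and 3656 to 4292 at day 28. Satellite cell sums were 308 to 479 and 439 to 527 at day 3, and 324 to 384 and 362 to 464 at day 28, with no marker called. Of the 8 skeletal muscle fibre genes 1 was called higher at both days, Actn2, a Z-disc protein, by 0.65 ± 0.12 and 0.61 ± 0.12 (log2, SE), named after its values were seen. Their summed intensity, carried by the brightest of them, was 80505 to 85343 on low fat and 82798 to 86429 on high fat at day 3, and 80112 to 83790 and 83532 to 86206 at day 28. The part of these cells in the differences of Tbx15 and Mef2d was not tested beyond the adipocyte covariate.

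Mef2d (Entrez gene 17261), the family member whose muscle isoform drives late muscle genes, was lower on high fat at day 3. On that day it was 4.86 at the lowest, 5.12 at the median and 5.53 at the highest on low fat, and 4.38, 4.66 and 5.04 on high fat. The groups overlapped, since high fat replicate 3, at 5.04, was above the low fat mice at 4.86 and 4.93. The difference was -0.48 ± 0.13 (log2, SE; interval -0.75 to -0.20, adjusted p by limma 0.0174), so that the level fell by 28.2% on the linear scale. The values lie not far above the log2 threshold of 4.

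At day 28 Mef2d was 4.57 at the lowest, 4.73 at the median and 5.13 at the highest on low fat, and 4.57, 4.99 and 5.35 on high fat. The ranges shared most of their length, and the difference was 0.19 ± 0.13 (log2, SE; interval -0.08 to 0.47, adjusted p by limma 0.393). The difference between the diet effects at the 2 days was 0.67 ± 0.19 (log2, SE; interval 0.28 to 1.06) with an adjusted p of 0.0618, short of the threshold, in a comparison that called 1.38% of all tested genes. So a change of the diet effect with time was not shown for Mef2d. Its low fat level went by -0.38 ± 0.13 from day 3 to day 28 (adjusted p by limma 0.170) and its high fat level by 0.29 ± 0.13 (adjusted p 0.296), values that share their arrays with the diet comparisons.

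The call of Mef2d at day 3 held when each array was left out in turn, with differences of -0.55 to -0.40 and adjusted p by limma of 0.00817 to 0.0470. It did not hold once the slow fibre mean entered the fit (-0.79 ± 0.22, adjusted p 0.149) nor once the adipocyte mean did (-0.45 ± 0.16, adjusted p 0.0631). The difference between days passed the threshold when 1 of 3 arrays was left out, namely high fat day 3 replicate 3 (adjusted p 0.0400), low fat day 28 replicate 3 (0.0460) or high fat day 28 replicate 6 (0.0428). Over all 24 such fits its adjusted p ran from 0.0400 to 0.113.

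The promoter of Mef2d is shown as that of the called regulator that has an entry in the RefSeq promoter table used. It runs from 250 bases before the start site to 50 after it, on the plus strand, at chr3:88142122-88142421 of GRCm38.p6.
Mef2d: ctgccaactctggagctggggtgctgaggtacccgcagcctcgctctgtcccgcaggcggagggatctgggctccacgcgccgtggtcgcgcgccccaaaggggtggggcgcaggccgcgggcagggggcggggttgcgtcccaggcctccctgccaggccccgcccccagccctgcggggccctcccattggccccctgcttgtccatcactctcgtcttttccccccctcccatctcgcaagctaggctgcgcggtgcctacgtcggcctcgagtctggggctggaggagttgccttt
It is all in lower case, since capitals mark CANNTG or the MEF2 consensus on either strand and neither was found in this window. Of 32851 RefSeq promoters of the same length, 72.3% held CANNTG and 0.557% the MEF2 consensus, so CANNTG is common and its presence or absence in a window is a description of letters only.

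Sox6 (Entrez gene 20679), the repressor of slow fibre genes, did not pass the test at either day. At day 3 it was 7.28 at the lowest, 7.44 at the median and 7.55 at the highest on low fat, and 7.12, 7.27 and 7.43 on high fat. The ranges overlapped. The difference of -0.16 ± 0.07 (log2, SE; interval -0.30 to -0.02) had an adjusted p of 0.115 by limma. At day 28 it was 7.06, 7.28 and 7.46 on low fat and 7.18, 7.31 and 7.36 on high fat, a difference of 0.03 ± 0.07 (interval -0.11 to 0.17, adjusted p 0.837). Its level on low fat went by -0.18 ± 0.07 from day 3 to day 28 (adjusted p 0.195). These intervals are the narrowest among the 6, so that a change of Sox6 by more than 0.30 (log2) in either direction lies outside the interval at both days. The 6 RefSeq promoters of Sox6 held from 1 to 4 CANNTG sites each, 1 of them a CAGCTG, the form found in 16.3% of all promoters. None of the 6 held the MEF2 consensus in the strict form searched.

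Mef2c (Entrez gene 17260), the family member needed for muscle and heart development, had the largest SE of the 6 in the fit over all groups. At day 3 it was 9.27 at the lowest, 10.82 at the median and 10.91 at the highest on low fat, and 9.82, 10.73 and 10.94 on high fat. At day 28 it was 8.73, 10.45 and 10.87 on low fat, and 8.68, 10.79 and 11.03 on high fat. The groups overlapped almost wholly. The differences of -0.04 ± 0.40 (log2, SE; interval -0.86 to 0.78, adjusted p by limma 0.959) and 0.37 ± 0.40 (interval -0.45 to 1.19, adjusted p 0.607) leave room for large changes in either direction.

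The low values of Mef2c lay on 4 arrays, namely low fat day 3 replicate 2, low fat day 28 replicates 4 and 6 and high fat day 28 replicate 6. These were also the 4 arrays of lowest ratio between the 3′ and the 5′ control probe sets of beta-actin, a standard measure of RNA and labelling quality on this array. Mef2c was 8.68 to 9.35 there and 9.82 to 11.03 on the other 20 arrays. The log2 ratio of beta-actin was -0.19 to -0.04 there and 0.10 to 0.37 elsewhere. The beta-actin probe set from the middle of the transcript had a linear intensity of 142 to 452 there and 904 to 2670 elsewhere. The log2 ratio of the 3′ over this middle probe set was 2.97 to 4.46 there and 1.15 to 2.29 elsewhere. It went the opposite way to the 3′ over 5′ ratio. Whether RNA or labelling quality differed on these arrays was not tested. The log2 ratio of Gapdh overlapped, at -0.11 to 0.02 and -0.16 to -0.05. Of the 5793 tested genes, 80 (1.38%) were lower on all 4 of these arrays than on any other and 8 were higher, and Mef2c was the 1 regulator among the 80. These arrays came from 3 groups, 2 of them from low fat day 28, and their set was chosen after the values had been seen.

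Leaving out these 4 arrays, which held the lowest Mef2c values, was bound to narrow its spread. The differences of Mef2c were then -0.30 ± 0.17 (log2, SE, adjusted p by limma 0.242) at day 3 and 0.20 ± 0.18 (adjusted p 0.582) at day 28, still not called. Tbx15 remained called without these arrays, at -0.39 ± 0.09 (adjusted p 0.0113) and -0.43 ± 0.11 (adjusted p 0.0178), and so did Mef2d at day 3, at -0.52 ± 0.13 (adjusted p 0.0152). Over the other 20 arrays, the within-group r of Mef2c with the beta-actin ratio was 0.44 (p = 0.152 by permutations, adjusted p = 0.152 over 2 relations; Spearman's rho 0.04, p = 0.929; 0.55 without the 2 farthest arrays). With the middle probe set it was 0.62 (p = 0.0227 by permutations, adjusted p = 0.0454; 0.58 without the 2 farthest arrays), but Spearman's rho was 0.18 (p = 0.537), so the relation was not seen in the ranks. High fat day 3 replicates 3 and 5, at 10.10 and 9.82, are the next lowest in Mef2c and have middle probe set intensities of 904 and 1156.

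**Figure D4:**
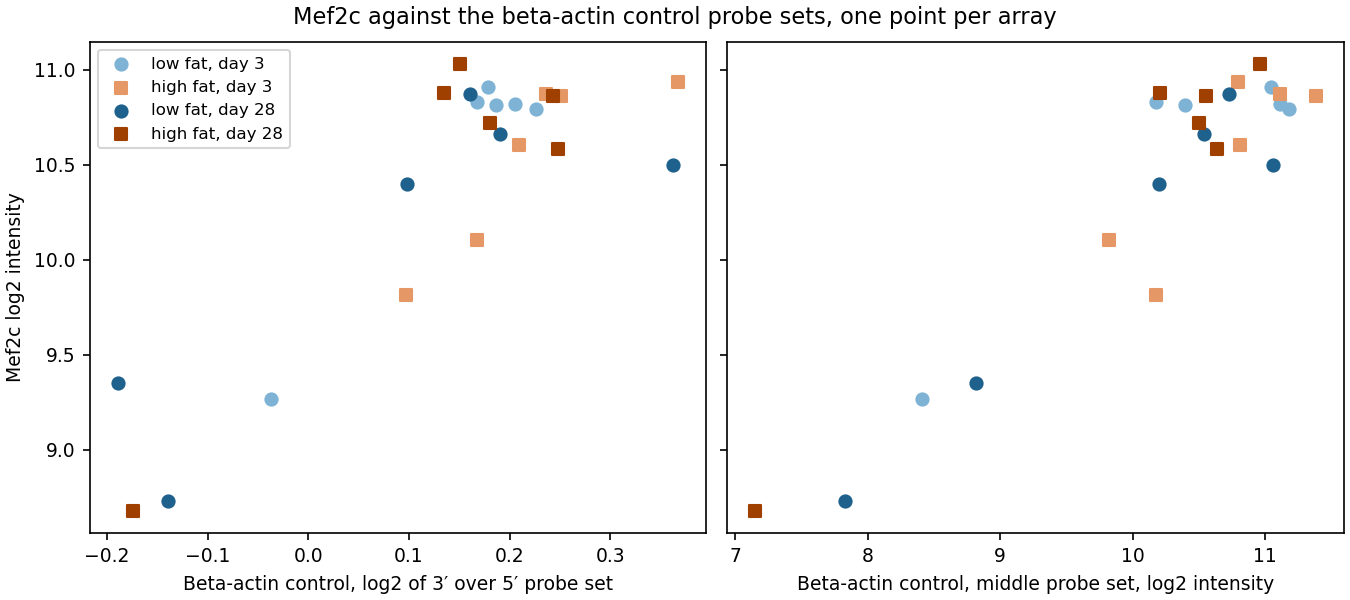
Log2 intensity of Mef2c against the log2 ratio of the 3′ over the 5′ beta-actin control (left) and the log2 intensity of the middle beta-actin control (right), 1 point per array, coloured by group. The 4 arrays of lowest ratio, at -0.19 to -0.04, hold the 4 lowest Mef2c values, 8.68 to 9.35, and come from 3 groups.

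Mef2c had 3 RefSeq promoters, with 2, 0 and 1 CANNTG sites and no MEF2 consensus as searched. The 3 genes most like it after the group means were subtracted were Prkaa2, which encodes a catalytic subunit of AMP-activated kinase (r = 0.992 over 24 arrays), Nbeal1 (0.987) and Zdhhc21, a palmitoyltransferase gene (0.985). All 3 were low on the same 4 arrays: Prkaa2 was 6.34 to 7.94 there and 8.68 to 10.77 elsewhere, Nbeal1 3.42 to 4.71 and 6.04 to 8.45, and Zdhhc21 2.72 to 4.35 and 4.89 to 7.18. These correlations include the arrays that stand apart in the beta-actin control.

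Myf6 (Entrez gene 17878), also called Mrf4, is the myogenic factor that adult fibres keep expressing. At day 3 it was 9.46 at the lowest, 9.68 at the median and 10.34 at the highest on low fat, and 9.46, 9.80 and 9.93 on high fat. At day 28 it was 9.49, 9.95 and 10.49 on low fat, and 9.70, 9.83 and 9.98 on high fat. The high fat values lay inside the low fat range at day 28. The differences were -0.06 ± 0.15 (log2, SE; interval -0.37 to 0.25, adjusted p by limma 0.820) and -0.09 ± 0.15 (interval -0.40 to 0.22, adjusted p 0.770). The SD on low fat was 0.36 at both days, against 0.16 and 0.09 on high fat, a difference of spread that was not tested.

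Myod1 (Entrez gene 17927), the factor of satellite cell activation and of fast fibres, varied more between mice of a group than between groups. At day 3 it was 4.57 at the lowest, 5.41 at the median and 6.69 at the highest on low fat, and 4.61, 5.59 and 5.92 on high fat. At day 28 it was 5.24, 5.71 and 7.07 on low fat, and 4.86, 5.38 and 5.76 on high fat. The ranges overlapped at both days. The differences were -0.07 ± 0.32 (log2, SE; interval -0.73 to 0.58, adjusted p by limma 0.905) and -0.55 ± 0.32 (interval -1.20 to 0.11, adjusted p 0.302), the second being the largest in size of the 6 regulators at day 28 and not beyond the spread. Within groups, Myod1 had an r of -0.59 with the adipocyte mean (p = 0.00560 by permutations, adjusted p = 0.0504 over 18 relations; Spearman's rho -0.53, p = 0.0168, adjusted p = 0.151), which does not pass the adjustment. Without high fat day 3 replicate 5 and low fat day 3 replicate 1, the arrays farthest from the median, r was -0.26, so the value rests on those mice.

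Myog (Entrez gene 17928), the factor that drives myoblast differentiation and rises after loss of the nerve, exceeded a log2 intensity of 4 on 0 of 24 arrays. Its group means were 2.21 ± 0.30 (SD, n = 6) and 2.47 ± 0.41 at day 3, on low fat and high fat, and 2.19 ± 0.20 and 2.34 ± 0.17 at day 28. With no filter on low values its log2 difference at day 3 was 0.26 ± 0.16 (SE; adjusted p by limma 0.410 over 14754 genes). At this level no difference is read. Its promoter at chr1:134289754-134290053 of GRCm38.p6 held 2 CANNTG sites, 138 and 12 bases before the start site, and no MEF2 consensus as searched.

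Mef2a (Entrez gene 17258), the family member known for metabolic muscle genes, exceeded 4 on 1 of 24 arrays, low fat day 3 replicate 6 at 4.15. Its group means at day 3 were 3.71 ± 0.38 (SD, n = 6) on low fat and 3.28 ± 0.38 on high fat, and at day 28 they were 3.37 ± 0.26 and 3.49 ± 0.38. With no filter the difference at day 3 was -0.43 ± 0.19 (log2, SE; adjusted p by limma 0.220). The Mef2a promoter, on the minus strand at chr7:67372809-67373108 of GRCm38.p6, is shown for its match to the MEF2 consensus, the motif of its own protein family. Promoter entries were found for Myog, Mef2a, Mef2c, Mef2d and Sox6, and not for Tbx15, Myod1 or Myf6. Of those found, this was the 1 promoter that held the consensus in the strict form searched.
Mef2a: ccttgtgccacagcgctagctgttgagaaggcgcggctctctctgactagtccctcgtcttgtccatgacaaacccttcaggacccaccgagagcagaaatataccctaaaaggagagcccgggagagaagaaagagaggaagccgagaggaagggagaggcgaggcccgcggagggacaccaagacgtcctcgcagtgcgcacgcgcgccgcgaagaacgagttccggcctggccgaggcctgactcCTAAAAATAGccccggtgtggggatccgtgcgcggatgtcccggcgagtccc
The capitals mark that match, which begins 2 bases before the start site. No CANNTG was found in this window. The match describes the letters and is no evidence that the site is used.

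By limma, 0 of the 6 regulators were called for time on either diet, where 0.345% of all tested genes were called on low fat and 0.552% on high fat. At an unadjusted p under 0.05 there were 2 of 6 on low fat (Mef2d and Sox6), against 16.6% of all tested genes, and 1 of 6 on high fat (Mef2d), against 14.4%. These shares of 6 genes are too coarse to be set apart from the background. The median difference of the 6 between day 28 and day 3 was -0.12 on low fat and -0.0045 on high fat, against 0.010 and 0.0064 over all tested genes. For a diet effect that differed between the days limma called 0 regulators, with 1 of 6 at an unadjusted p under 0.05 (Mef2d) against 18.8% of all tested genes, and the values ran from -0.47 (Myod1) to 0.67 (Mef2d).

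The partners of these factors were counted in lists. Of the myogenic factors' partners and inhibitors, 18 in all, 14 were in the table and 2 were tested, Tcf12, an E protein, and Mdfic, an inhibitor of the family. Neither was called by limma in any comparison, and 0 had an unadjusted p under 0.05. Tcf12 had log2 differences of 0.21 ± 0.15 (SE) and 0.19 ± 0.15 at days 3 and 28, and Mdfic 0.17 ± 0.09 and -0.03 ± 0.09. The Id, Hes and Hey repressors of the list were not tested.

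Of the MEF2 cofactors and calcium signalling genes 17 were tested. At day 3, 1 was called higher and 1 lower, and at day 28, 2 were called higher, with medians of -0.10 and 0.04. A count of 2 in 17 is near the background of 14.9% at day 3 and 12.5% at day 28, so the genes named are called genes of the list and no shift of the list is read. Nfatc1, the NFAT factor of slow fibres, rose by 0.26 ± 0.08 (log2, SE; adjusted p by limma 0.0276) at day 3 and by 0.31 ± 0.08 (adjusted p 0.00944) at day 28. Its means were 5.47 ± 0.10 (SD, n = 6) and 5.73 ± 0.21 at day 3, and 5.40 ± 0.08 and 5.71 ± 0.08 at day 28. Of the catalytic subunits of calcineurin, Ppp3ca fell by 0.20 ± 0.07 at day 3 (adjusted p 0.0494) and was at -0.02 ± 0.07 at day 28 (adjusted p 0.873). Ppp3cb was at -0.10 ± 0.06 at day 3 (adjusted p 0.277) and rose by 0.20 ± 0.06 at day 28 (adjusted p 0.0199). Their diet effects were not called as different between the days, with adjusted p of 0.319 for Ppp3ca and 0.0603 for Ppp3cb. Hdac4, which binds and represses MEF2, was not analysed here.

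Of 10 tested other regulators of fibre type, 1 was called higher at day 3 and 3 at day 28, none lower, with medians of 0.08 and 0.45. Over all tested genes 7.99% were called higher at day 3 and 5.35% at day 28, so that 1 in 10 is near the background. Esrrg, an oestrogen-related receptor of oxidative muscle, rose by 0.88 ± 0.16 (log2, SE; adjusted p by limma 0.000738) at day 3, from 4.45 ± 0.29 (SD, n = 6) to 5.33 ± 0.48. At day 28 it rose by 0.80 ± 0.16 (adjusted p 0.00147), from 4.45 ± 0.08 to 5.26 ± 0.12. At day 28 Bhlhe40, a helix-loop-helix repressor, rose by 0.53 ± 0.16 (adjusted p 0.0320) and Six4, a homeobox factor, by 0.50 ± 0.13 (adjusted p 0.0126). Eya1, a transcriptional cofactor of fast fibres, had -0.17 ± 0.13 and 0.22 ± 0.13 and was not called. Prox1 was not analysed here.

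Myostatin itself could not be followed, but 14 genes of its pathway were tested. At day 3, 2 were called lower, and at day 28, 1 was called higher, with medians of 0.01 and 0.0097. These counts are near or below the background of 14.9% and 12.5%. Acvr2a, a type II activin receptor, fell by 0.74 ± 0.19 (log2, SE; adjusted p by limma 0.00932) at day 3, from 6.20 ± 0.27 (SD, n = 6) to 5.46 ± 0.40, and was at -0.08 ± 0.19 at day 28. Smad3, which carries the receptor's signal to the nucleus, fell by 0.49 ± 0.15 (adjusted p 0.0334) at day 3, from 7.20 ± 0.32 to 6.71 ± 0.37, and was at -0.05 ± 0.15 at day 28. The difference between days was not called for either gene, at 0.66 ± 0.26 (adjusted p 0.182) for Acvr2a and 0.43 ± 0.22 (adjusted p 0.280) for Smad3. Acvr2b, the main myostatin receptor, had -0.07 ± 0.25 and 0.08 ± 0.25. Tcap, the Z-disc protein telethonin, which can bind myostatin, rose by 0.25 ± 0.08 (adjusted p 0.0317) at day 28. Fst, the inhibitor follistatin, lay near the floor, with group means of 2.25 to 2.54.

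Among 17 tested target genes of the myogenic factors and MEF2, 5 were called higher and 1 lower at day 3, and 3 higher and 1 lower at day 28, with medians of 0.05 and 0.10. Over all tested genes 7.99% were called higher and 6.87% lower at day 3, and 5.35% and 7.18% at day 28. The higher genes include Myl4 at both days, which passed the filter only through the high fat groups. Chrna1, a subunit of the acetylcholine receptor, rose by 0.78 ± 0.14 (log2, SE) at both days (adjusted p by limma 0.000727 and 0.000664). Mb, myoglobin, the oxygen store of oxidative fibres, rose by 0.42 ± 0.08 (adjusted p 0.000958) and 0.40 ± 0.08 (adjusted p 0.00119). Myl4, the embryonic and atrial myosin light chain, had means of 2.83 ± 0.33 (SD, n = 6) and 4.25 ± 0.46 at day 3, on low fat and high fat, and 2.90 ± 0.17 and 4.23 ± 0.28 at day 28. Its low fat values lay under the threshold of 4, so no size is read from its calls. Lmod3, a thin filament protein, rose by 0.38 ± 0.10 (adjusted p 0.0125) at day 3.

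Gadd45a, a stress gene, fell by 0.98 ± 0.32 (log2, SE; adjusted p by limma 0.0411) at day 3. It was again called lower (adjusted p 0.0415) at day 28, with means of 7.34 on low fat and 6.34 on high fat. Its SD on low fat was 0.79 and 0.71. Musk, the kinase that organises the neuromuscular junction, is named here after its values were seen and was called at day 3, at 0.77 ± 0.26 (adjusted p 0.0459), with 0.51 ± 0.26 at day 28 (adjusted p 0.220). With time, Actc1, the cardiac actin of immature fibres, fell by 1.06 ± 0.23 on low fat (adjusted p 0.0485) and fell by 1.65 ± 0.23 on high fat (adjusted p 0.00136), and Mybph, a myosin binding protein, fell by 1.73 ± 0.37 on high fat (adjusted p 0.0444).

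**Figure D5:**
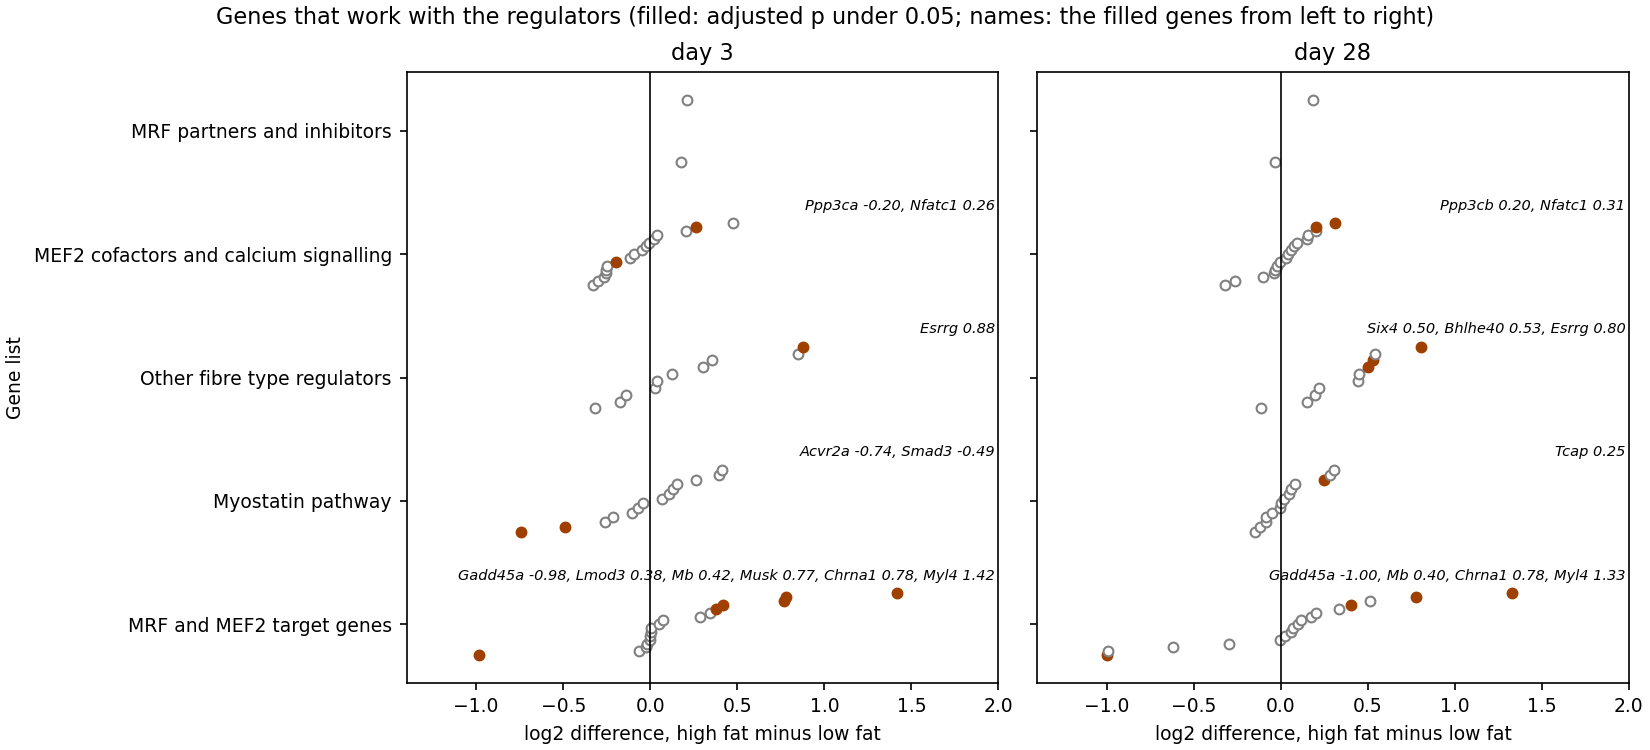
Log2 difference between high fat and low fat at day 3 (left) and day 28 (right) for each tested gene of 5 lists of genes that work with the regulators. Filled points have an adjusted p under 0.05 and are named with their log2 difference above their row, from left to right. Nfatc1, Esrrg, Mb and Chrna1 are called higher and Gadd45a lower at both days, and so is Myl4 higher, which passed the filter only through the high fat groups (low fat means of 2.83 and 2.90).

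The genes whose pattern was most like that of each regulator were taken by Pearson's r over 24 arrays after the group means were subtracted, as a description. The median over all tested genes of the best such r was 0.793, so values near it are usual. For Tbx15 the nearest were Tnrc6c, a gene of microRNA silencing (0.770), Mpp3 (0.766) and Gpaa1 (0.735). For Mef2d they were Nr1d1, a repressor of the circadian clock (0.775), Cdv3 (0.751) and Uqcrfs1, a subunit of the cytochrome bc1 complex (0.736). For Sox6 they were Capn1, a calpain protease (0.710), Fbxo45 (0.654) and Spsb3 (0.632). For Myf6 they were Tsc22d3 (0.845) and Mt1 (0.824), both known to respond to glucocorticoids, and Ppp1r3c, which targets a phosphatase to glycogen (0.815). For Myod1 they were Klhl12 (0.871), Oaz2 (0.774) and Vamp3 (0.744). Only Myf6, Mef2c and Myod1 had a gene above 0.793. All these genes were read on the same arrays, including the 4 that stand apart in the beta-actin control.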

How the data were processed

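Quadriceps RNA of 24 mice (4 groups of 6) was hybridised to 1 Affymetrix array each. The authors' deposited values are intensities on a linear scale, made with GCRMA per the submitters' processing notes; its version, and the version and genome build of the probe definition, are not given in the sources used here. GCRMA corrects the background from probe sequence and normalizes the arrays, which sets the values of dim probe sets. Of 16361 probe sets, 14771 had 1 gene symbol in the platform annotation, and the brightest per gene was kept (14754 genes).

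Log2 values were taken with no offset and fitted as 4 group means with limma 3.58.1 in R 4.3.3 (20 residual degrees of freedom, two-sided tests, Benjamini-Hochberg over 5793 genes). The code was tested on simulated data. Groups came from the labels; each array is a mouse, and the number of arrays limits precision. The regulators, gene lists and tests were chosen with earlier results of these data known. Named genes are the regulators, up to 4 called genes of smallest p per list and comparison, 3 nearest genes per regulator, 4 myosins and 6 partners. Replicate numbers in the titles did not pair the mice (correlations of same-numbered deviations from -0.38 to 0.54). Alternatives changed the filter, normalization, offset, arrays, weights, variance prior, block, probe set rule and covariates. For low fat day 3 replicate 1 the extraction text names no removal of genomic DNA. Correlations were tested by permutation within groups. Promoters are from RefSeq (GRCm38.p6).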

Additional observations from a re-analysis of the deposited data

Results flagged for a closer look

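Among the 32 sets of 6 values (8 regulators in 4 groups), 3 held a mouse whose gap to its nearest neighbour, divided by the range of the group, exceeded Dixon's 95% critical value. Chance alone flags about 1 in 20 such sets. Mef2c on low fat at day 3 stood at 9.27 in replicate 2, with the next value at 10.8, a gap of 0.932 of the range. Mef2c on high fat at day 28 stood at 8.68 in replicate 6, with the next at 10.58, a gap of 0.809 of the range. Both arrays are among the 4 of lowest beta-actin 3′ to 5′ ratio. Myod1 on high fat at day 3 stood at 4.61 in replicate 5, with the next at 5.47, a gap of 0.656 of the range, and this mouse had the highest adipocyte mean of its group, 9.89 on the log2 scale.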

How the results depend on the processing

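Over the 14 alternatives other than leaving out single arrays, 385 of 414 log2 differences of the 6 regulators kept their direction and side of the threshold, 5 lost a call, 3 gained one and 21 changed sign, each of the 21 uncalled. The cause of these changes was not tested. The 4 alternatives that use the beta-actin ratio or the adipocyte mean were chosen after seeing the data.

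Calls among the regulators moved at day 3 from 2 to 0 with the slow fibre covariate and 1 with the adipocyte covariate, and at day 28 from 1 to 0 with either. For the difference between days they moved from 0 to 1 (Mef2d) with array weights, the slow fibre covariate or the beta-actin covariate. Counts over all tested genes moved at day 3 from 861 to 507 with only the arrays compared and 17 with the slow fibre covariate. At day 28 they moved from 726 to 26 with the slow fibre covariate, 403 without the 4 arrays of lowest beta-actin ratio and 35 with the adipocyte covariate. The difference between days (80) gave 6 with no filter, 278 with array weights, 6 without the 4 arrays of highest beta-actin ratio and 10 with the adipocyte covariate. Time on low fat (20) gave 3 with no filter, 40 with quantile normalization, 132 with array weights, 33 with the slow fibre covariate, 2 without the 4 lowest arrays and 7 with the beta-actin covariate. It gave 0 by limma with only the arrays compared (862 at an unadjusted p under 0.05), without the 4 highest arrays (708) and with the adipocyte covariate (672). Time on high fat (32) gave 9 with no filter, 106 with array weights, 18 with the slow fibre covariate, 5 without the 4 highest arrays, 16 with the beta-actin covariate and 13 with the adipocyte covariate.

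With the replicate number as a block, the difference between days gave 176 genes and time on low fat 32, against 80 and 20, and the calls among the regulators did not move. The numbers do not pair the mice.

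Signs changed as follows (log2 differences). With array weights Myf6 at day 3 was 0.0568, Tbx15 between days -0.0216 and Mef2c over time on high fat 0.0204. With the slow fibre covariate Myf6 was 0.40 at day 3 and 0.32 at day 28, Mef2c -0.21 and Mef2d -0.0788 at day 28. Without the 4 highest arrays Sox6 at day 28 was -0.0169, and over time on high fat Mef2c was 0.0849 and Tbx15 0.0548. Without the 4 lowest arrays Myf6 was 0.00787 at day 3, 0.0782 at day 28 and 0.0703 between days, Tbx15 -0.0348 between days and Mef2c 0.28 over time on high fat. With the beta-actin covariate Mef2c over time on high fat was 0.32. With the adipocyte covariate Mef2c was -0.41 and Sox6 -0.0316 at day 28, Mef2c -0.00346 and Tbx15 -0.0675 between days, and Sox6 over time on high fat -0.00414.

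Leaving out 1 array at a time gave 678 to 883 genes at day 3, 593 to 804 at day 28, 19 to 115 between days, 0 to 59 for time on low fat and 3 to 51 on high fat, and 0 to 1 regulators between days. Of 720 differences 31 changed sign, none of them called: Myod1 at day 3 ran from -0.27 to 0.15. Myf6 ran from -0.13 to 0.0437 at day 3, -0.18 to 0.0243 at day 28 and -0.13 to 0.0858 between days. Mef2c ran from -0.30 to 0.10 at day 3 and -0.22 to 0.28 over time on high fat. Sox6 ran from -0.0104 to 0.0698 at day 28 and -0.0205 to 0.0411 over time on high fat. Tbx15 ran from -0.0307 to 0.10 between days and -0.0896 to 0.0423 over time on high fat. The number of arrays and, for Myog and Mef2a, values near the floor limit what can be seen.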
